A study of Mus musculus with 9 samples.

Results

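The BCL2 family and the inhibitors of apoptosis were followed here as 10 genes out of the 43346 listed in a bulk RNA-Seq experiment on regenerating mouse liver. The set comprised the pro-survival genes *Bcl2*, *Bcl2l1* and *Mcl1*, the effector *Bak1*, the BH3-only genes *Bcl2l11*, *Bid* and *Bad*, and the inhibitor of apoptosis (IAP) genes *Birc2*, *Birc3* and *Xiap*. Members were taken by gene symbol, without regard to their values, and all 10 were present and passed the filter on low counts. The study examined how NSC-87877 (NSC), a small molecule inhibitor of the phosphatase SHP2 that mice received in doses of 7.5 mg/kg every 12 h (15 mg/kg/day), acts on regeneration after 70% partial hepatectomy. Whole liver of C57/BL6 mice aged 12 weeks was sampled in 3 groups of 3 livers. The baseline (vehicle 0 h) was the lobes removed at surgery from vehicle-treated mice. The other groups were the liver remnants 40 h after surgery of vehicle-treated mice and of NSC-treated mice. According to the study's methods, mice were male and wild type, the drug was dissolved in normal saline and given i.p., and controls received saline only. The sample records place the first dose 12 h before surgery, whereas the methods place it 1 day before. Resected liver of NSC-treated mice was not analysed here, so both remnant groups were set against the same 3 baseline livers. NSC-87877 also inhibits the related phosphatase SHP1, which limits it as a model of SHP2 loss alone.

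The mitochondrial route of apoptosis is controlled by the balance between BCL2 family proteins. BH3-only proteins such as BIM (*Bcl2l11*), BID and BAD bind the pro-survival proteins BCL2, BCL-XL (*Bcl2l1*) and MCL1 or act on BAK (*Bak1*) and BAX directly, and the effectors then open the outer mitochondrial membrane and release cytochrome c. IAPs act at other points: XIAP binds and inhibits caspases, and cIAP1 (*Birc2*) and cIAP2 (*Birc3*) are ubiquitin ligases at the TNF receptor. Hepatocytes are known to rely on MCL1 and BCL-XL for survival, to hold little BCL2, and to need BID when apoptosis is triggered through the death receptor FAS.

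Sequences upstream of the genes are given for the 3 members that were called different from baseline in both remnant groups (*Bcl2*, *Bid* and *Birc3*) and for 2 members with a motif match (*Bcl2l11* and *Mcl1*). Each is the 250 bases before a start of the gene listed in RefSeq (GRCm38.p6), read 5′ to 3′ on the strand of the gene, and all 10 members had an entry in that table. They lie at chr1:106714291-106714540 on the minus strand for *Bcl2*, chr6:120916825-120917074 on the minus strand for *Bid*, chr9:7873171-7873420 on the minus strand for *Birc3*, chr2:128125788-128126037 on the plus strand for *Bcl2l11* and chr3:95658471-95658720 on the plus strand for *Mcl1*. Capitals mark a motif match.
Bcl2: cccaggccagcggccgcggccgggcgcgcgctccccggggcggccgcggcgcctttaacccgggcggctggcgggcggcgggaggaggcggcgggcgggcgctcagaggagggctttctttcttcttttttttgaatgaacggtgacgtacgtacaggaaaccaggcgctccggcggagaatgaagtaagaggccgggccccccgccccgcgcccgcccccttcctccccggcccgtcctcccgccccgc
Bid: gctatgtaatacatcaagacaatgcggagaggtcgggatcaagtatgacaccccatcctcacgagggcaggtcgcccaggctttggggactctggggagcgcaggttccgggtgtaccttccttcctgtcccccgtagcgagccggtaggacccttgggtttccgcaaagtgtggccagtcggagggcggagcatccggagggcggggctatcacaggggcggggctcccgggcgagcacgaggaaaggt
Birc3: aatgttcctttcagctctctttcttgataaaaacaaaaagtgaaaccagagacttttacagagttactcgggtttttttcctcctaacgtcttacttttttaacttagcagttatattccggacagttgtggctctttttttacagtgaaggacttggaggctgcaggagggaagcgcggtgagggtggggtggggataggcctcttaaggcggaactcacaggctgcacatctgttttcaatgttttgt
Bcl2l11: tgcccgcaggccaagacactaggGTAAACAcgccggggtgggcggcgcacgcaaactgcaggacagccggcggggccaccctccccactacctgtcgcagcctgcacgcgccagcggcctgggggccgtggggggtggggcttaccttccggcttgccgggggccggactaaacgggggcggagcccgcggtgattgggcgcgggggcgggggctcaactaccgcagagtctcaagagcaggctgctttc
Mcl1: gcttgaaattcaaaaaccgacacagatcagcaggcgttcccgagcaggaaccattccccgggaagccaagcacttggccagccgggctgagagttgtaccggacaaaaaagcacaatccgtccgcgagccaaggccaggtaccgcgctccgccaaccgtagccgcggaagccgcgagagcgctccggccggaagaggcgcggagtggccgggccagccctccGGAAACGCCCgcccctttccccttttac

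The motifs searched on both strands were GTAAACA for FOXO factors, TTCNNNGAA for STAT factors, GGG followed by 2 bases of any kind and TTTCC for NF-kappaB and TGATGNAAT for the CHOP-ATF4 pair. They were chosen after the values of the genes had been seen, and none overlapped another in these windows. Of the 2 listed starts of *Bcl2l11*, the one shown held a FOXO match 227 to 221 bases upstream and the other had no match. *Mcl1* held an NF-kappaB match on the other strand 28 to 19 bases before its start, and 1 of the 3 listed starts of *Bcl2l1* held another, 218 to 209 bases upstream. The windows of the other 7 members had no match. Among all 32851 windows of the table, 3.17% held the FOXO motif, 7.02% the STAT motif, 1.41% the NF-kappaB motif and 0.816% the CHOP-ATF4 motif. A match is a description of the letters only.

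Library totals on genes ran from 23997363 to 42887589 reads. Levels of single genes are given as CPM, the count scaled to a fixed library size after adjustment by edgeR's TMM factors, and 3 counts corresponded to 0.0751 to 0.117 CPM. Group values are mean ± SD of 3 livers. Hepatocyte markers were detected at 91643 to 129381 CPM in sum in every library, which matches the labelled tissue. Replicate 1 of the NSC group stood apart from the other 2 livers of its group: its summed level of 9 cycling cell markers was 263 CPM, against 973 and 790 CPM, and its summed level of 11 macrophage markers was 607 CPM, against 374 and 405 CPM. Member values are therefore given with and without this library where it matters. Differences were tested with edgeR's quasi-likelihood test on 15024 genes in 1 fit of all 9 libraries, and a gene was called at a Benjamini-Hochberg adjusted p under 0.05. Labels number the livers but do not say whether a baseline lobe and a remnant with the same number came from 1 mouse. The p-values set a group difference against the spread between these livers, estimated with information shared over genes.

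In vehicle-treated mice at 40 h, *Bcl2* rose 2.04-fold, and *Bid* and *Birc3* fell to 0.518 and 0.609 of baseline. In NSC-treated mice, *Bcl2* (2.82-fold), *Xiap* (1.66-fold) and *Birc2* (1.38-fold) rose, and *Birc3* (0.595 of baseline) and *Bid* (0.633) fell. Thus 3 of 10 members were called in vehicle-treated mice, against 23.7% of all genes tested, and 5 of 10 in NSC-treated mice, against 34.7% of all genes. By direction, 1 member rose and 2 fell in vehicle-treated mice, where 12.7% and 11% of all genes rose and fell, and 3 rose and 2 fell in NSC-treated mice, where 18.2% and 16.5% did. The remnant and baseline livers did not overlap in 4 members in vehicle-treated mice and in 5 members in NSC-treated mice, which compares with 46.3% and 47.1% of all genes. An unadjusted p under 0.05 was reached by 6 members in each of these comparisons, against 37% and 45.2% of genes. No member passed a fold threshold of 1.5 on the log2 scale together with the adjusted p, which 7.22% and 8.13% of all genes did. Members had a median log2 fold change of 0.19 (vehicle) and 0.22 (NSC), beside medians of 0.0128 and 0.0129 over all genes tested. Since whole liver was sequenced, fewer cells of a type and less RNA per cell cannot be told apart.

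**Figure D1:**
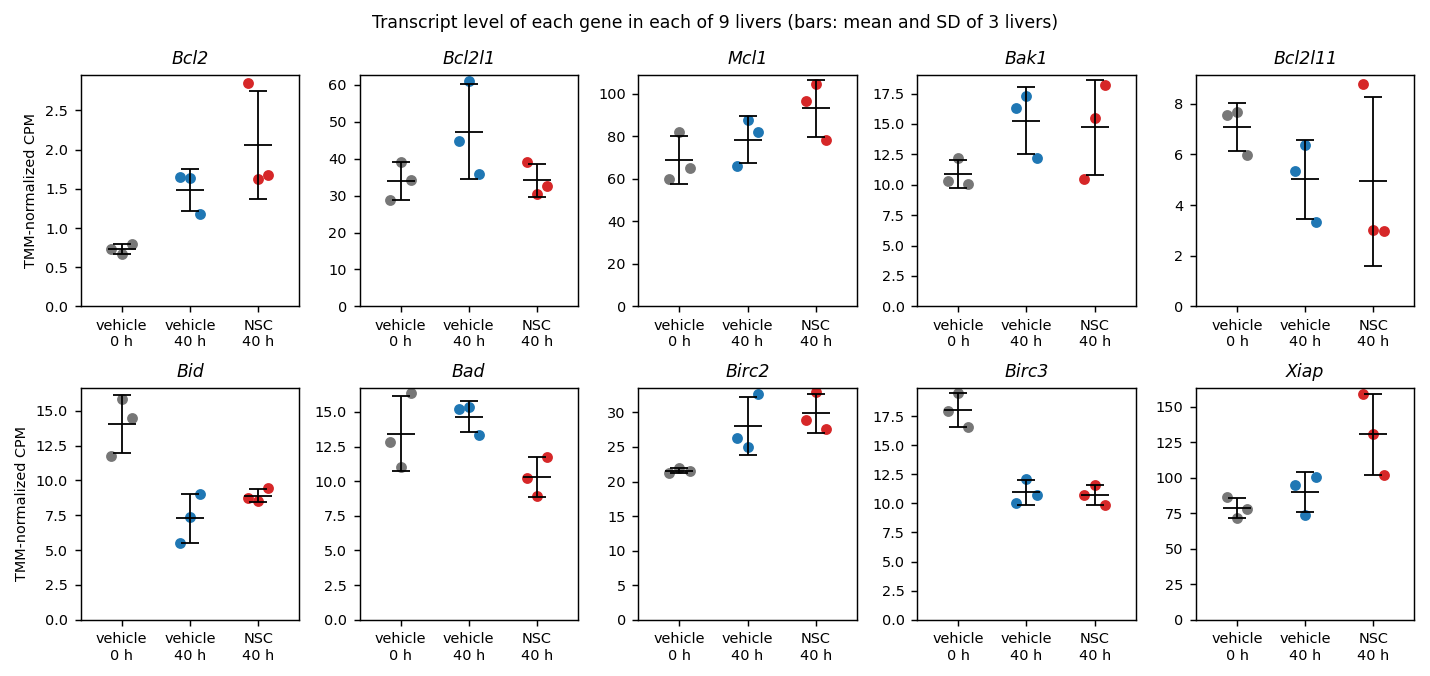
TMM-normalized CPM (vertical axis, linear and starting at 0) of each of the 10 genes in each of the 9 livers, with 3 points per group and bars for the mean and SD. *Birc3* and *Bid* lie lower in all 6 remnants than in the 3 baseline livers, *Bcl2* lies higher, and *Bcl2l11* of 8.79 CPM and *Bcl2* of 2.85 CPM mark replicate 1 of the NSC group.

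*Mcl1* was the most abundant member in every group on the scale that allows genes to be compared, FPKM (counts per gene length and per library total, as deposited by the authors). Its level was 19.1 ± 3.16 FPKM at baseline, 21.8 ± 1.60 FPKM in vehicle remnants and 28.4 ± 3.88 FPKM in NSC remnants, and its range lay apart from that of the next gene in each group. FPKM holds no TMM adjustment, so it serves here to compare genes within a group rather than groups. At baseline *Xiap* (8.20 FPKM), *Bcl2l1* (7.16 FPKM) and *Bad* (6.45 FPKM) came next, and the ranges of neighbours in this order overlapped. *Birc2* (4.55 FPKM), *Bak1* (4.35 FPKM), *Bid* (3.82 FPKM) and *Birc3* (3.47 FPKM) formed a second run of genes with overlapping neighbours, apart from *Bad* above and *Bcl2l11* below. *Bcl2l11* had 0.849 FPKM and *Bcl2* 0.0770 FPKM, each apart from its neighbours.

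In vehicle remnants the order was *Mcl1*, *Bcl2l1*, *Xiap*, *Bad*, *Bak1*, *Birc2*, *Birc3*, *Bid*, *Bcl2l11* and *Bcl2*. Neighbours overlapped from *Bcl2l1* down to *Birc2*, and *Birc3* (2.12 FPKM) overlapped with *Bid* (1.99 FPKM). In NSC remnants *Xiap* (15.0 FPKM) lay apart from *Bcl2l1* (7.93 FPKM) below it, neighbours from *Bcl2l1* through *Birc2* and *Bak1* to *Bad* overlapped, and *Bid* (2.67 FPKM) lay just above *Birc3* (2.27 FPKM) without overlap. *Bcl2* stayed lowest in every group, at 0.159 FPKM in vehicle and 0.240 FPKM in NSC remnants.

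**Figure D2:**
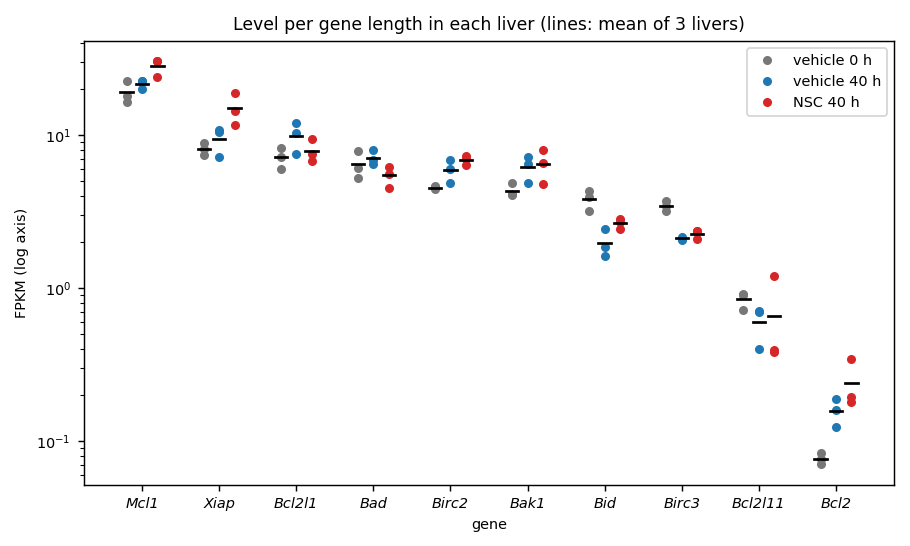
FPKM on a log axis of the 10 genes in each liver, ordered by level at baseline, with a line at the mean of the 3 livers of each group. *Mcl1* sits highest at 19.1 to 28.4 FPKM and *Bcl2* lowest at 0.0770 to 0.240 FPKM in the group means.

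*Bcl2* encodes the founding pro-survival member of the family and lies on chromosome 1 from 106538178 to 106714274 (ENSMUSG00000057329). Its counts were low, 23, 22 and 24 at baseline, 66, 63 and 32 in vehicle remnants and 95, 48 and 43 in NSC remnants. This corresponded to 0.727, 0.672 and 0.792 CPM at baseline, to 1.65, 1.63 and 1.18 CPM in vehicle remnants and to 2.85, 1.63 and 1.68 CPM in NSC remnants. All 6 remnants lay above all 3 baseline livers, and the 2 remnant groups overlapped. The log2 fold change from baseline was 1.03 in vehicle-treated mice (standard error 0.33, adjusted p = 0.0403) and 1.49 in NSC-treated mice (standard error 0.33, adjusted p = 0.00472). The vehicle call was fragile. It was lost without any 1 of the 3 baseline livers (adjusted p from 0.0875 to 0.102), without vehicle remnant 1 (0.122) or 2 (0.0994), and when all genes with at least 1 count were tested (0.0627). Without NSC replicate 1, the NSC change was 1.18 and was still called (adjusted p = 0.0140).

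Markers of immune cells differed between groups in both directions. The summed level of the 11 macrophage markers was 221 to 305 CPM at baseline, 208 to 377 CPM in vehicle remnants and 374 to 607 CPM in NSC remnants, so that the vehicle and baseline ranges overlapped. Of the 11 genes, 2 rose in vehicle and 5 in NSC remnants, against 12.7% and 18.2% of all genes. The 8 neutrophil markers summed to 4.12 to 12.9 CPM, 10.7 to 24.1 CPM and 14.2 to 24.5 CPM in the same order. B cell markers went the other way, from 16.6 to 24.5 CPM at baseline to 2.29 to 13.5 CPM in vehicle and 5.60 to 9.63 CPM in NSC remnants, and the T and NK cell markers were at 2.29 to 5.94 CPM, 0.976 to 1.66 CPM and 2.34 to 3.25 CPM. No marker of these lists was at 0 in every library. The part of these cells in the change of *Bcl2* was not tested. The genes whose log2 CPM followed *Bcl2* most closely over the 9 libraries were the cholesterol exporter gene *Abcg1* (Pearson r = 0.984) and *Lcp2* (0.983) and *Plek* (0.974), which encode proteins of leukocyte signaling. These libraries share their groups, so the coefficients are descriptions.

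*Bcl2l1* encodes BCL-XL (chromosome 2, 152780668 to 152831728). Levels were 28.7, 39.1 and 34.2 CPM at baseline, 44.7, 61.2 and 35.9 CPM in vehicle remnants and 39.2, 30.6 and 32.6 CPM in NSC remnants. The 3 groups overlapped with each other, with the highest values in vehicle remnants 1 and 2. The log2 fold change from baseline was 0.47 in vehicle-treated mice (adjusted p = 0.100) and 0.00 in NSC-treated mice (95% interval -0.43 to 0.43). Without vehicle remnant 3 the former was 0.64 and passed (adjusted p = 0.0458).

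*Mcl1*, which encodes a short-lived pro-survival protein (chromosome 3, 95658721 to 95663176), had 60.1, 81.7 and 64.9 CPM at baseline. It had 65.8, 87.5 and 81.9 CPM in vehicle remnants and 96.7, 104 and 78.2 CPM in NSC remnants. NSC livers 1 and 2 thus exceeded every library of the other groups, and NSC liver 3 fell within the range of both other groups. Neither log2 fold change was called, at 0.19 in vehicle-treated mice (adjusted p = 0.467) and 0.43 in NSC-treated mice (adjusted p = 0.0690). The latter passed without baseline replicate 2 (0.57, adjusted p = 0.0358), without NSC replicate 3 (0.55, adjusted p = 0.0331) and with scaling by library size only (0.57, adjusted p = 0.0181).

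Among the 3 pro-survival members, *Mcl1* made up 72.5% ± 1.13 of the summed FPKM at baseline, 68.4% ± 5.47 in vehicle remnants and 77.6% ± 3.32 in NSC remnants. *Bcl2l1* made up 27.2% ± 1.10, 31.1% ± 5.40 and 21.8% ± 3.19, and *Bcl2* between 0.229% and 0.851% in single livers. All 3 NSC livers lay above all other livers in the *Mcl1* share, at 75.8%, 81.4% and 75.5%, and the next was vehicle remnant 3 at 74.7%. Summed FPKM of the 3 genes was 22.6 to 30.9 at baseline, 30.4 to 34.7 in vehicle remnants and 31.6 to 40.4 in NSC remnants. FPKM holds no TMM adjustment, so this sum also carries the differences in TMM factor between groups. The factors were 0.961 to 0.972 at baseline, 0.900 to 1.06 in vehicle and 1.02 to 1.10 in NSC remnants. These shares are descriptions of mRNA and were not tested.

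*Bak1* encodes the effector BAK (chromosome 17, 27019810 to 27029009). Levels were 10.3, 12.2 and 10.1 CPM at baseline, 16.3, 17.3 and 12.2 CPM in vehicle remnants and 10.5, 15.5 and 18.2 CPM in NSC remnants. One liver in each remnant group remained in the baseline range. The log2 fold changes of 0.49 in vehicle-treated mice (adjusted p = 0.110) and 0.44 in NSC-treated mice (adjusted p = 0.130) were not called. Without NSC replicate 1, both passed, at 0.50 (adjusted p = 0.0399) and 0.63 (adjusted p = 0.0190), and the vehicle change also passed when only those 2 groups were fitted (adjusted p = 0.0447).

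Of the *Bak1* exonic bases in GENCODE M21, 25.5% are overlapped by exons of *Ggnbp1* on the other strand. *Ggnbp1* fell by 0.65 (adjusted p = 0.00573) and 1.17 (adjusted p = 0.000159) on the log2 scale in vehicle and NSC remnants. The library kit keeps strand, but whether counting used it is not given in the sources used here. How reads of the shared bases were counted is therefore not known.

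*Bid* encodes the BH3-only protein that caspase-8 cleaves to link death receptors to mitochondria (chromosome 6, 120891930 to 120916853). It had 11.8, 15.8 and 14.5 CPM at baseline, 5.48, 7.39 and 9.01 CPM in vehicle remnants and 8.73, 8.52 and 9.43 CPM in NSC remnants. All 6 remnants lay below all baseline livers. *Bid* fell by 0.95 on the log2 scale in vehicle-treated mice (standard error 0.20, adjusted p = 0.00559) and by 0.66 in NSC-treated mice (standard error 0.20, adjusted p = 0.0234). The vehicle call held without each single library, over a range of -1.12 to -0.78. The NSC call was lost without baseline replicate 2 (-0.56, adjusted p = 0.0811) or 3 (-0.63, 0.0750), without NSC replicate 2 (-0.63, 0.0724) and with scaling by library size only (-0.52, 0.0580).

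*Bcl2l13* overlaps 17.7% of the *Bid* exonic bases on the other strand. Its log2 fold change was 0.09 in vehicle-treated mice (adjusted p = 0.650) and 0.13 in NSC-treated mice (adjusted p = 0.477).

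*Bcl2l11* encodes BIM (chromosome 2, 128126038 to 128162547). Levels were 7.55, 7.66 and 5.97 CPM at baseline, 5.36, 6.35 and 3.32 CPM in vehicle remnants and 8.79, 3.02 and 2.97 CPM in NSC remnants. NSC replicate 1 was the highest of the 9 libraries and the other 2 NSC livers were the lowest. With all libraries, the log2 fold changes were -0.49 in vehicle-treated mice (adjusted p = 0.409) and -0.51 in NSC-treated mice (adjusted p = 0.351). Without NSC replicate 1, the NSC value was -1.23 and was called (adjusted p = 0.00488), so this result is decided by 1 library.

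*Bad* encodes a BH3-only protein that is held inactive by growth factor phosphorylation (chromosome 19, 6941861 to 6951898). It had 12.9, 11.02 and 16.4 CPM at baseline, 15.2, 15.4 and 13.4 CPM in vehicle remnants and 10.2, 8.90 and 11.8 CPM in NSC remnants. Both remnant groups overlapped with baseline and not with each other. The log2 fold change from baseline was 0.13 in vehicle-treated mice (adjusted p = 0.645) and -0.38 in NSC-treated mice (adjusted p = 0.119). *Gpr137* overlaps 20.5% of the *Bad* exonic bases on the other strand, and it fell in NSC remnants by 0.78 on the log2 scale (adjusted p = 0.00475), with -0.33 in vehicle remnants (adjusted p = 0.185).

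The genes *Birc2* (chromosome 9, 7818227 to 7837064) and *Birc3* (chromosome 9, 7848699 to 7873186) are neighbours on the minus strand with 11634 bases between them. They encode cIAP1 and cIAP2. *Birc3* had 18.0, 19.5 and 16.5 CPM at baseline, 10.01, 12.1 and 10.7 CPM in vehicle remnants and 10.7, 11.5 and 9.86 CPM in NSC remnants. All 6 remnants lay below all baseline livers and the 2 remnant groups covered the same range. *Birc3* fell by 0.72 on the log2 scale in vehicle-treated mice (standard error 0.15, adjusted p = 0.00514) and by 0.75 in NSC-treated mice (standard error 0.15, adjusted p = 0.00279). Each call held without any single library, with adjusted p up to 0.0338 and 0.0124. The SDs in the 3 groups were 1.46, 1.08 and 0.842 CPM.

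*Birc2* had 21.3, 22.0 and 21.5 CPM at baseline, 26.3, 25.0 and 32.7 CPM in vehicle remnants and 28.9, 33.0 and 27.7 CPM in NSC remnants. All 6 remnants lay above all baseline livers. The log2 fold change was 0.37 in vehicle-treated mice, which was not called (adjusted p = 0.0789), and 0.47 in NSC-treated mice (standard error 0.14, adjusted p = 0.0256). The NSC call was lost without any 1 baseline liver (adjusted p from 0.0568 to 0.0781) or without NSC replicate 2 (0.39, adjusted p = 0.0968).

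The neighbours therefore lay on opposite sides of their baseline levels in every remnant. Of 4579 distinct stretches of 50 bases in *Birc2* transcripts, 65 also occur in *Birc3*. Of 5079 such stretches of *Birc3*, 375 (7.38%) occur in another gene on the same strand, 213 of them in *Gm7019*, so reads there are of uncertain origin. The genes closest to *Birc3* over the 9 libraries were *Gm13775* (Pearson r = 0.989), *Mup-ps16* (0.987) and *Scd1* (0.986), the last of which encodes stearoyl-CoA desaturase. *Scd1* went from 9352 CPM at baseline to 915 and 714 CPM in vehicle and NSC remnants.

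*Xiap* encodes the caspase inhibitor and is X-linked (chromosome X, 42059679 to 42109656). Levels were 86.2, 71.7 and 78.0 CPM at baseline, 94.7, 74.1 and 101 CPM in vehicle remnants and 159, 131 and 102 CPM in NSC remnants. All 3 NSC livers lay above all 6 others, although the lowest NSC liver was close to the highest vehicle remnant. In NSC-treated mice *Xiap* rose by 0.73 on the log2 scale (standard error 0.18, adjusted p = 0.00927), whereas the value in vehicle-treated mice was 0.19 (adjusted p = 0.481). Without NSC replicate 1, the NSC change was 0.57 and was still called (adjusted p = 0.0231).

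**Figure D3:**
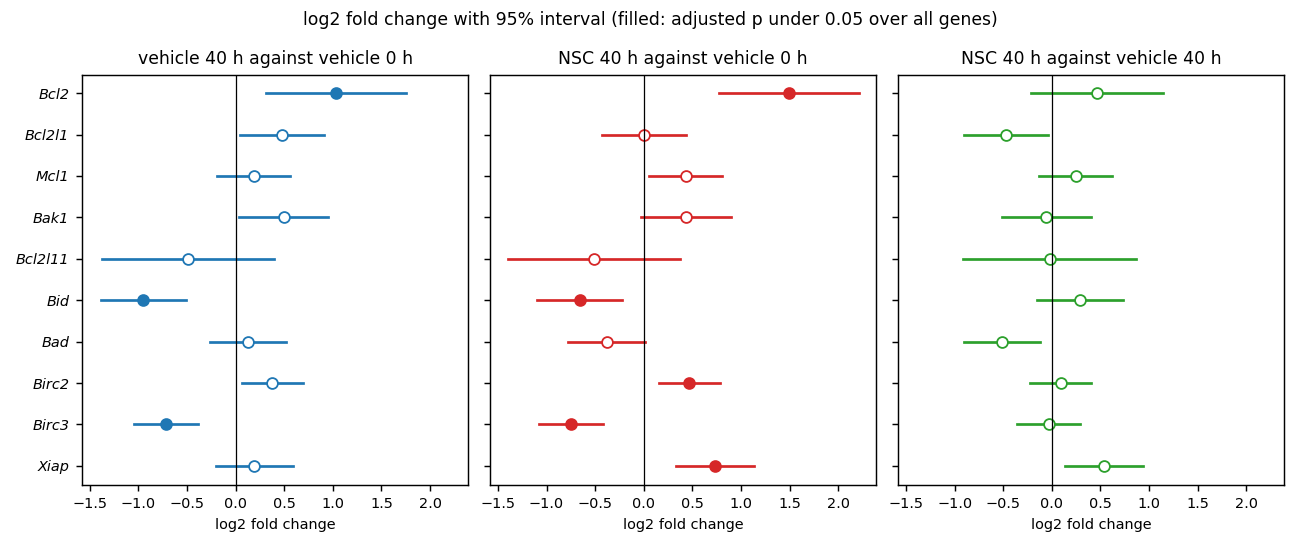
log2 fold change (horizontal axis) of each gene in the 3 comparisons, with the 95% interval of the edgeR fit, filled where the adjusted p over all genes was under 0.05. Filled points are 3 in vehicle against baseline, 5 in NSC against baseline and 0 in NSC against vehicle, where the values run from -0.51 for *Bad* to 0.54 for *Xiap*.

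The direct comparison addresses whether NSC changed these genes in the regenerating remnant. No member was called by edgeR's quasi-likelihood test (0 of 10, against 0.0399% of all genes). DESeq2 and the likelihood ratio test also called 0 members, where they called 733 and 412 of all genes. By the quasi-likelihood test 0% of all genes were called higher and 0.0399% lower, with 0.02% also past the fold threshold. An unadjusted p under 0.05 was reached by 3 members, against 19.5% of all genes, and the 2 remnant groups did not overlap in 2 members, against 22.5% of all genes. These 3 members were *Xiap*, *Bad* and *Bcl2l1*. *Xiap* was higher in NSC than in vehicle remnants by 0.54 on the log2 scale (95% interval 0.14 to 0.94, adjusted p = 0.153 in edgeR) in 3 of 3 livers. *Bad* had a difference of -0.51 (95% interval -0.90 to -0.12, adjusted p = 0.164 in edgeR), with 3 of 3 NSC livers below every vehicle remnant. *Bcl2l1* had a difference of -0.47 (95% interval -0.90 to -0.04, adjusted p = 0.221 in edgeR), and its groups overlapped.

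Without NSC replicate 1 the difference was 0.37 for *Xiap* (adjusted p = 0.209), -0.51 for *Bad* (0.142) and -0.59 for *Bcl2l1* (0.111). For the other 7 members the difference between remnants lay from -0.06 for *Bak1* to 0.46 for *Bcl2*. Intervals were narrowest for *Birc2* (-0.22 to 0.41) and *Birc3* (-0.36 to 0.29) and widest for *Bcl2l11* (-0.91 to 0.87). Like *Birc2*, *Bcl2* (-0.22 to 1.14), *Mcl1* (-0.13 to 0.62) and *Bid* (-0.15 to 0.73) had intervals that extended further above 0 than below. Those of *Bak1*, *Birc3* and *Bcl2l11* extended further below 0.

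Of 62 further genes of the apoptosis pathway in 9 lists, 56 were tested. In vehicle remnants 12 rose and 10 fell, where 12.7% and 11% of all genes did, and in NSC remnants 9 rose and 10 fell, where 18.2% and 16.5% did. None was called between the remnants by the quasi-likelihood test, where 13 had an unadjusted p under 0.05 (19.5% of all genes). DESeq2 called 3 (*Nr4a1*, *Tnfaip3* and *Ddit3*), beside 733 over all genes. The likelihood ratio test called 2 (*Nr4a1* and *Tnfaip3*), beside 412 over all genes. Each of these was lower in NSC remnants. Genes with too few counts to test were *Bcl2a1a* and *Bcl2a1d*, paralogs whose reads are hard to separate, and *Bcl2l10*, *Hrk*, *Bcl2l15* and *Birc7*.

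Of 4 other BH3-only genes tested, 3 fell in both remnant groups, where 11% and 16.5% of all genes fell. For *Pmaip1*, vehicle remnants (0.311 to 0.554 CPM) overlapped with baseline (0.0305 to 0.727 CPM). Its NSC remnants lay above baseline (0.783 to 1.15 CPM), and 47.1% of all genes did not overlap in that comparison. *Bmf* fell by 2.50 and 2.41 on the log2 scale in vehicle and NSC remnants (adjusted p = 0.000897 and 0.000732), *Bik* by 1.58 and 1.30 (0.00484 and 0.00893) and *Bbc3*, which encodes the p53 target PUMA, by 1.01 and 1.24 (0.0283 and 0.00809). *Bmf* had 8.37, 19.1 and 8.97 CPM at baseline and 1.33 to 2.88 CPM in the 6 remnants. Neither remnant group overlapped with baseline, as in 46.3% and 47.1% of all genes, and the 2 remnant groups overlapped with each other. The vehicle call of *Bbc3* was lost without baseline replicate 2 (adjusted p = 0.0560) or 3 (0.125) and without vehicle remnant 1 (0.119) or 3 (0.0732). *Pmaip1*, which encodes NOXA, had 1 to 37 counts per library and was not called by the quasi-likelihood test (0.35 and 1.67, adjusted p = 0.758 and 0.0725). The NSC value was called by the likelihood ratio test (adjusted p = 0.0341), and without baseline replicate 1 it was 3.14 (0.00756).

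Of the other effectors, *Bax* was measured at 24.2, 22.8 and 24.5 CPM at baseline, at 29.4, 30.0 and 28.8 CPM in vehicle remnants and at 17.04, 31.5 and 38.9 CPM in NSC remnants. Its changes of 0.30 and 0.29 were not called (adjusted p = 0.376 and 0.360). NSC replicate 1 was again the low library, as for *Bak1*, and without it *Bax* was at 0.56 in NSC remnants and was called (adjusted p = 0.00875). Neither tested gene of the other pro-survival list was called in either remnant group, where 23.7% and 34.7% of all genes were, or between remnants (0.0399%). Among BCL2-like genes, *Bcl2l14* rose by a log2 fold change of 3.12 and 2.10 from 2 to 4 counts per baseline library. Its NSC call was lost without any 1 baseline liver (adjusted p from 0.0679 to 0.0969) or NSC replicate 1 (1.22, adjusted p = 0.183). *Bnip3* fell by 1.30 in vehicle remnants (adjusted p = 0.0178, lost without vehicle remnant 1 at 0.0706 or 2 at 0.0607, and at 0.0634 when all genes with at least 1 count were tested).

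Of 6 other IAP genes tested, 1 was called in each remnant group, where 23.7% (vehicle) and 34.7% (NSC) of all genes were. This was *Birc5*, which encodes the mitotic protein survivin and carries the same BIR domain as *Xiap*. It rose by 3.93 (adjusted p = 0.0114) and 4.92 (adjusted p = 0.00364) on the log2 scale, from 1.19 to 2.32 CPM at baseline to 20.9 to 27.7 CPM in vehicle remnants. NSC remnants had 8.46, 66.4 and 69.4 CPM, and the low value was again that of replicate 1. The vehicle call was lost without baseline replicate 3 (adjusted p = 0.0516). Without NSC replicate 1 the difference between remnants was 1.49 (adjusted p = 0.00227), in a fit that called 994 of all genes in this comparison. None of 4 IAP antagonist genes was called in either remnant group, where 23.7% and 34.7% of all genes were, or between remnants (0.0399%).

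Genes downstream and upstream of the members moved in both directions. Of 11 apoptosome and caspase genes, *Apaf1*, the scaffold of the apoptosome, rose by 1.45 and 1.67 on the log2 scale (adjusted p = 0.00116 and 0.000369), and *Casp8*, which cleaves BID, rose by 0.60 and 1.10 (0.0229 and 0.000676). *Casp2* rose by 0.74 and 1.13, and *Casp9* fell by 0.76 and 0.74. *Casp6* fell by 0.58 and 0.56. The call of *Casp9* in vehicle remnants was lost without vehicle remnant 3 (adjusted p = 0.0508), and those of *Casp6* without baseline replicate 2 (0.0501), vehicle remnant 2 (0.0519) or, in NSC remnants, NSC replicate 2 (0.0536) or with scaling by library size only (0.0673).

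Of 12 death receptor genes, *Tnfrsf10b*, the mouse TRAIL receptor, rose by 3.11 and 3.00 (adjusted p = 0.000381 and 0.000318), *Fas* by 0.70 and 0.93 and *Traf2*, whose product binds cIAP1 and cIAP2, by 0.70 and 0.75. *Tnfrsf1a* rose in vehicle remnants by 0.87 (adjusted p = 0.00312), with 0.42 in NSC remnants (0.0659). *Tnfrsf1b* fell by 0.92 and 1.48. *Tnfaip3*, an NF-kappaB target like *Birc3*, rose in vehicle remnants by 2.24 (adjusted p = 0.0174, lost without baseline replicate 3 at 0.0608 and at 0.0606 with all genes of at least 1 count), with 0.53 in NSC remnants (0.471), and its difference between remnants was -1.71 (adjusted p = 0.148).

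Of 10 upstream transcription factors, *Foxo3*, whose product is a known activator of *Bcl2l11*, fell by 1.33 and 1.47 (adjusted p = 0.000120 and 5.06e-05). *Foxo1* fell in vehicle remnants by 0.77 (adjusted p = 0.0114, lost without vehicle remnant 3 at 0.0509). *Stat5b* fell by 0.87 and 1.18, and its vehicle call was lost without baseline replicate 1 (0.0531) or 3 (0.0512) or vehicle remnant 3 (0.0528). *Ddit3*, which encodes the stress factor CHOP, rose in vehicle remnants by 2.27 (adjusted p = 0.0128, lost without baseline replicate 2 at 0.0503) and had 0.74 in NSC remnants (0.272). Its difference between remnants was -1.53 (adjusted p = 0.154, by DESeq2 0.0122). Without NSC replicate 1 this difference became -2.28 (0.00536), in a fit that called 994 of all genes in this comparison. *Nr4a1*, whose product can bind BCL2, had 87.1, 79.9 and 4.65 CPM in vehicle and 1.80, 2.44 and 3.68 CPM in NSC remnants. The difference of -4.45 was not called (adjusted p = 0.138) by the quasi-likelihood test and was called by DESeq2 (0.00305) and the likelihood ratio test (0.0125). Baseline livers had 20.5, 2.78 and 9.50 CPM of *Nr4a1*, and both remnant groups overlapped with them. By the quasi-likelihood test neither change from baseline was called, at 2.39 in vehicle (adjusted p = 0.163) and -2.06 in NSC remnants (0.209). Without vehicle remnant 3 the vehicle change was 2.94 (0.0339).

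**Figure D4:**
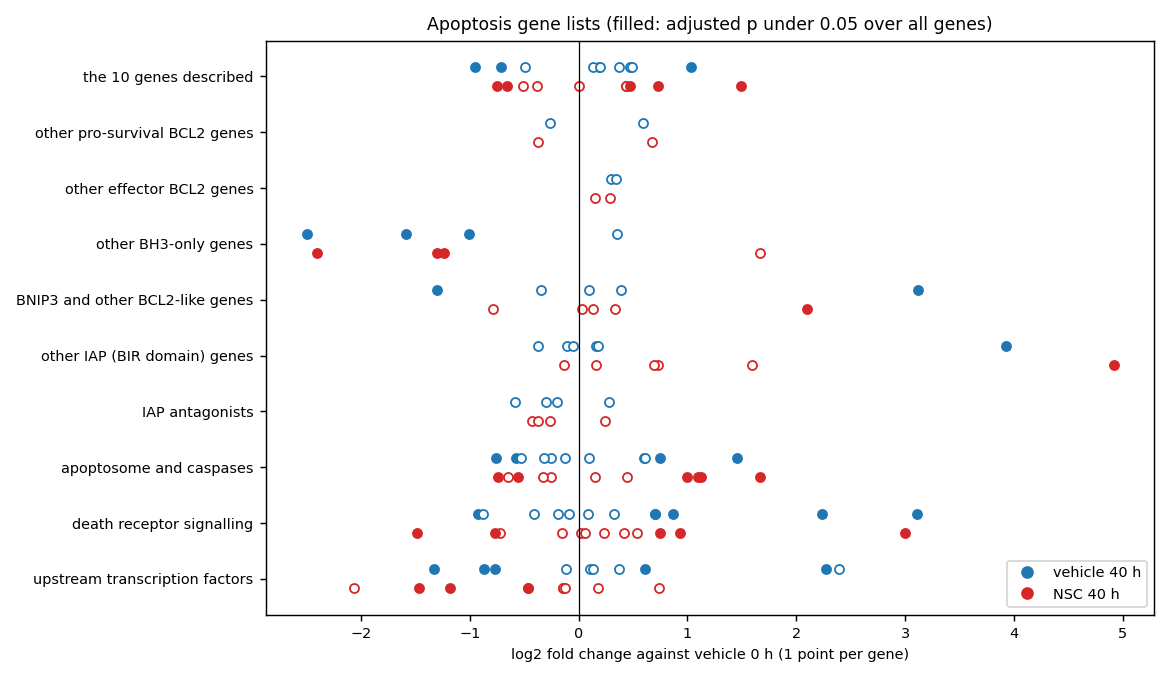
log2 fold change against baseline (horizontal axis) of every tested gene in the 10 members and 9 further apoptosis lists, in vehicle (blue) and NSC (red) remnants, filled where called. The members lie between -0.95 and 1.49, whereas *Birc5* reaches 4.92 and *Bmf* -2.50.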

How the data were processed

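RNA-Seq libraries of 9 livers were read from 1 deposited table. Paired-end reads had been aligned by the authors with STAR (2.6.1 in the submitters' processing notes) within MAP-RSeq and counted on genes with featureCounts of Subread (1.5.1 in the notes), and the authors deposited raw counts and FPKM of each library, unpooled. The deposited FPKM divides the counts by gene length plus 1 base and by the library total (largest relative difference on recomputation 4.96e-10). The sources name hg38, but identifiers and coordinates are mouse: 42462 of 43346 identifiers occur in GENCODE M21 (GRCm38), and 33497 genes (78.9%) have the same coordinates there, which affects the overlaps of *Mcl1* and *Bad*. Use of strand in counting is not given in the sources used here.

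The counts were tested with edgeR 4.0.16 in R 4.3.3 (TMM, filterByExpr, glmQLFit with robust estimation, glmQLFTest, all 9 libraries, group as the only term), with DESeq2 1.42.0 as an alternative, and summarised with pandas 2.3.3 and matplotlib 3.10.9 under Python 3.11.15. Adjustment was by Benjamini-Hochberg over 15024 genes in each of 3 comparisons. The standard error is the absolute log2 fold change divided by the square root of F. The procedure was checked on simulated data. Groups were taken from the sample titles. Within groups, libraries differed by far more than counting noise, so none was a duplicate. The floor of 3 counts covers counting error only.

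Members were taken by gene symbol and not by their values, although earlier results of these data were known. Lists, motifs and alternatives were chosen with those results known. All members are named. Of the other list genes, up to 8 rising and 8 falling calls with the smallest adjusted p per comparison are named, plus *Bax*, *Bbc3*, *Pmaip1*, *Birc5*, *Nr4a1* and *Ddit3*, and 1 gene that is not reported here. For the 2 members with the smallest adjusted p, the 3 genes with the highest Pearson r of log2 CPM (prior count 2) are named. *Scd1* was given in CPM after its values were seen. Other marker lists (endothelial, stellate, cholangiocyte, erythroid) were read for the check of tissue, and their values follow the report. Alternatives were the likelihood ratio test, DESeq2, RLE factors, library size alone as the scale, a minimum of 1 count in all or of 10 counts per library, a fit of the 2 groups in question, the replicate number as a block, a fold threshold, and omission of each library.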

Additional observations from a re-analysis of the deposited data

Results flagged for a closer look

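*Bad* was listed because its remnant groups lay on opposite sides of the baseline mean, although neither differed from baseline by the test (0.13, adjusted p = 0.645, and -0.38, adjusted p = 0.119) and both overlapped with it. On the log2 scale all 3 vehicle remnants lay above the baseline mean and all 3 NSC remnants below it. In CPM the NSC livers were at 8.90 to 11.8, vehicle remnants 1 and 2 at 15.2 and 15.4, and vehicle remnant 3 at 13.4, which is level with the baseline mean of 13.4. The difference between NSC and vehicle remnants was -0.51 on the log2 scale (edgeR quasi-likelihood test, adjusted p = 0.164), so it failed the correction over all genes. It kept its sign under every alternative run, from -0.62 to -0.38. *Gpr137*, which overlaps *Bad* exons on the other strand, differed by -0.45 between the same remnants (edgeR quasi-likelihood test, adjusted p = 0.187). The part of reads from shared bases in the *Bad* difference was not tested.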

How the results depend on the processing

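Each library was left out in turn. The members called ranged from 2 to 4 in vehicle and from 3 to 7 in NSC remnants, and stayed at 0 between remnants. The fewest in NSC remnants were without baseline replicate 3 or NSC replicate 2, and the most without NSC replicate 1. The other pathway genes called ranged from 14 to 22, from 16 to 22 and from 0 to 2 in the 3 comparisons, and all genes from 2285 to 4538, from 3604 to 5234 and from 0 to 994, the last again without NSC replicate 1 (111 without vehicle remnant 3). With the fold threshold, 0 members were called in each comparison, 7, 5 and 0 pathway genes, and 1085, 1222 and 3 of all genes. Between remnants, all genes called were 6 in the test reported, 733 by DESeq2, 412 by the likelihood ratio test, 221 with at least 1 count, 11 with the replicate block and 1 with library size only, and pathway genes were 3 by DESeq2 and 2 by the likelihood ratio test.

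Small differences changed sign. *Bcl2l1* in NSC remnants was -0.000805 with RLE factors and down to -0.11 without 1 library. Between remnants with library size only, *Bcl2l11* was 0.13, *Bak1* 0.065, *Birc3* 0.099 and *Bax* 0.11. With 1 library left out they ranged from -0.75 to 0.23, from -0.24 to 0.13, from -0.10 to 0.045 and from -0.28 to 0.26. *Pmaip1* in vehicle remnants ranged from -0.19 (without baseline replicate 2) to 1.82 (without baseline replicate 1). None of these was called, and the cause was not tested.

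Same-numbered libraries deviated from their group means with correlations of -0.0479 to 0.134, so the numbers were not taken as pairs. With the replicate block, 3578 and 5178 of all genes were called in vehicle and NSC remnants. In that fit 2 members were called in vehicle remnants, where *Bcl2* was lost (adjusted p = 0.0502), and 6 in NSC remnants, where *Mcl1* was gained (0.0425). *Bnip3* was also lost in vehicle remnants (0.0653).

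With all 8 pro-survival genes in the sum, *Bcl2* made up 0.227% at baseline, *Bcl2l1* 20.9%, 25.3% and 17.9% and *Mcl1* 55.6%, 55.6% and 64.2% in the 3 groups. Without division by gene length, *Bcl2* made up 0.719%, 1.18% and 1.58%, *Bcl2l1* 32.8%, 36.9% and 26.5% and *Mcl1* 66.4%, 61.9% and 71.9%. Low counts limit genes such as *Bcl2*, *Bcl2l14* and *Pmaip1*.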

Other observations

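Other cell type markers also differed between groups in sum. Cholangiocyte markers were at 37.8 to 40.7 CPM at baseline, 76.0 to 115 CPM in vehicle and 79.1 to 122 CPM in NSC remnants, and stellate cell markers at 205 to 246 CPM, 405 to 573 CPM and 252 to 461 CPM. Endothelial markers were at 180 to 188 CPM, 116 to 186 CPM and 137 to 244 CPM, and erythroid markers at 225 to 327 CPM, 105 to 185 CPM and 129 to 230 CPM. The 9 cycling cell markers rose in both remnant groups, where 12.7% and 18.2% of all genes rose. Their sum was 15.1 to 22.3 CPM at baseline, 359 to 452 CPM in vehicle and 263 to 973 CPM in NSC remnants. Of 8 hepatocyte markers, 1 fell in vehicle and 3 in NSC remnants, where 11% and 16.5% of all genes fell. The part of these cells in the values of the 10 genes was not tested.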
